A study of Homo sapiens with 12 samples.

Results

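The collagen chains of the human genome were followed in papillary thyroid cancer cells treated with an inhibitor of focal adhesion kinase (FAK). All genes of the array's probe annotation whose symbol was COL, a number, A and a number were taken, which gave 43 chains with 73 probes, out of 20044 genes with a probe. The choice used the symbol alone and no measured value. COL17A1 was not analysed here. RNA levels came from 12 Illumina bead arrays of 3 cell lines (TPC1, BCPAP, K1). Cells were left untreated or received 10 µM Y15, a small molecule that blocks the autophosphorylation of FAK, for 24 hours, and each of the 6 groups had 2 arrays. TPC1 carries the RET/PTC1 rearrangement, BCPAP mutations of BRAF and p53, and K1 the same BRAF mutation, another p53 mutation and a mutation of the gene of PI3 kinase, so untreated and treated cells of a line shared its lesions. TPC1 and BCPAP were grown in RPMI and K1 in a mixture of other media, so the line and the medium of K1 cannot be told apart. Each is an established cell line, which holds tumor cells and none of the stroma of a tumor. The samples are labelled as duplicates with no statement for these lines on separate plates, so the p-values cover only the spread between the 2 samples of a group, which may be technical. For each gene this spread was estimated over the 6 groups together and used for every line. The number of arrays limits the precision.

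Collagens are trimers of chains that wind into a triple helix. Fibril-forming collagens (types I, V, XI, XXIV and XXVII here) build the fibers of the stroma, type IV builds the network of basement membranes, types VI and VIII build beaded filaments and hexagonal lattices, and others sit on fibrils (types IX, XII, XVI and XX), anchor the basement membrane (type VII), cross the plasma membrane (type XIII) or carry heparan sulfate in basement membranes (type XVIII). Cells bind these matrices through integrins, and FAK relays the signal of integrins at focal adhesions. In thyroid tissue a basement membrane with type IV collagen surrounds each follicle, and thyroid epithelial cells add to it.

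The genes of type IV collagen lie head to head in pairs. On chromosome 13 there were 126 bases between the starts of COL4A1 and COL4A2, on chromosome 2 there were 418 between COL4A3 and COL4A4, and on chromosome X 379 between COL4A5 and COL4A6 (RefSeq, GRCh38.p14). The sequence between COL4A1 and COL4A2 is shown because both chains are called lower below, and the 250 bases upstream of COL4A5, COL12A1, COL6A3 and COL18A1 are shown as those of another type IV chain, of a chain called in each line, and of chains called in a single line. The regions, each printed 5′ to 3′ on the strand given, are chr13:110307158-110307283 (plus strand), chrX:108439588-108439837 (plus), chr6:75206054-75206303 (minus), chr2:237414165-237414414 (minus) and chr21:45404915-45405164 (plus). Capitals mark the GC box GGGCGG and the CCAAT box CCAAT, or their reverse complements CCGCCC and ATTGG.
between COL4A1 and COL4A2: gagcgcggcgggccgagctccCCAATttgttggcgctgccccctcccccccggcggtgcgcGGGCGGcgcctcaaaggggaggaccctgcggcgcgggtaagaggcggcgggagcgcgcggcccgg
COL4A5: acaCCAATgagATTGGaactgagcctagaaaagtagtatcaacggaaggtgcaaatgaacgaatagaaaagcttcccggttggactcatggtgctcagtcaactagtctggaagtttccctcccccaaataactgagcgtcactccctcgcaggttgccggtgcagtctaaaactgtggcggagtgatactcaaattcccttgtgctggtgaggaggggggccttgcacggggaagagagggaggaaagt
COL12A1: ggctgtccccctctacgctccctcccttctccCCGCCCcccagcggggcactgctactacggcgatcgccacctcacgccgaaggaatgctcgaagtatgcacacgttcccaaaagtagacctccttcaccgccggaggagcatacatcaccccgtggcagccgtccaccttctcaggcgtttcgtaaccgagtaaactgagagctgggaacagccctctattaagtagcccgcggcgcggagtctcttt
COL6A3: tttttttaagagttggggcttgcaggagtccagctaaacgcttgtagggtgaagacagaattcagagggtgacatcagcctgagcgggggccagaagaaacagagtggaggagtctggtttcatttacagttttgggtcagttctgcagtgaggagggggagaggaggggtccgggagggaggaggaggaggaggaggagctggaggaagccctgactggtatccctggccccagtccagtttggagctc
COL18A1: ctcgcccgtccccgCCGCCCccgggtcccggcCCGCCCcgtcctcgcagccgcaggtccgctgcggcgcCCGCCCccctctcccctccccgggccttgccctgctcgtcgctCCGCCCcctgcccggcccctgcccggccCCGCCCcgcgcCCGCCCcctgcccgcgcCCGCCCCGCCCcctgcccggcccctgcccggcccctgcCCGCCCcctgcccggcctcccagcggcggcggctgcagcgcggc
The sequence between COL4A1 and COL4A2 had 1 GC box, 1 CCAAT box and a GC content of 80.2%. Upstream of COL18A1 there were 9 GC boxes and a GC content of 88.4%, upstream of COL12A1 1 GC box and 61.2%, and upstream of COL6A3 neither motif and 56.0%. Upstream of COL4A5 there were 2 CCAAT boxes, no GC box and a GC content of 51.2%. Of 23 chains tested, 17 had a promoter entry, and a GC box lay in 12 of these 17 windows (70.6%) against 42.6% of 35116 promoter windows of 250 bases. A CCAAT box lay in 5 (29.4%) against 32.0%. The matches describe letters and no binding was measured.

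Mean signal per array ran from 215.4 to 393.0, and 33.8% to 43.1% of the probes were above background, at a detection p under 0.05. With Y15 the mean signal was lower in TPC1 (305.6 and 280.8 against 366.6 and 340.6) and K1 (305.9 and 348.2 against 387.5 and 393.0) and higher in BCPAP (346.7 and 367.9 against 316.3 and 215.4). Values below are log2 signals after quantile normalization, which gives each array the same distribution. Of 7 thyroid follicular markers on the array, 3 were above background in TPC1 and K1 and 4 in BCPAP. PAX8, a thyroid transcription factor, was among them in each group, while TG, TSHR and SLC5A5, which mark differentiated follicular cells, were above background in none. None of 5 endothelial markers was above background, nor were PTPRC and CD3E, which define leukocytes and T cells. CD14 and CD68, of 5 leukocyte markers, were above background in each group, and CD79A was in TPC1 and BCPAP with Y15 alone. Of 10 fibroblast or stromal markers 5 were above background in untreated TPC1, 5 in BCPAP and 4 in K1, and PDGFRA, FAP and POSTN were above background in no group. In bulk samples fewer cells of a type and less RNA per cell cannot be told apart.

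Part of the collagens was above background, and most of these chains were common to the 3 untreated lines. On both arrays of at least 1 group 23 of the 43 chains (53.5%) were above background, where 12378 of 20044 genes were. In untreated cells 14 chains were above background on both arrays in all 3 lines, a count for which no share of all genes is given here. They were COL4A1, COL4A2 and COL4A5 of basement membranes, COL1A1, COL5A1 and COL5A2 of fibrils, COL6A1 and COL6A2 of beaded filaments, COL8A1 and COL8A2 of the short chain network, COL12A1 and COL16A1 of the fibril surface, COL7A1 of anchoring fibrils and COL13A1 of the plasma membrane. COL18A1, the source of endostatin, was above background in TPC1 and K1. A further 6 chains were above background in a single untreated line, COL24A1 and COL27A1 in TPC1, COL11A1 in BCPAP, and COL1A2, COL4A6 and COL6A3 in K1. COL9A2 and COL20A1 were above background on both arrays only in BCPAP with Y15. By group, 17 chains in untreated TPC1, 15 in BCPAP and 18 in K1 were above background on both arrays, and 14, 16 and 15 with Y15, where 54.0%, 45.8% and 53.2% of all genes were above background in untreated cells and 51.2%, 51.7% and 50.8% with Y15.

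The other 20 chains were not above background on both arrays of any group, which sets a limit of the array and not an absence of the RNA. They were COL2A1, COL9A1, COL9A3 and COL11A2 of cartilage, COL3A1 of the stroma, COL4A3 and COL4A4 of the mature glomerular basement membrane, and COL10A1, COL14A1, COL15A1, COL19A1, COL21A1, COL22A1, COL23A1, COL25A1, COL26A1, COL28A1, COL5A3, COL6A5 and COL6A6. COL11A2 was above background on 5 of 12 arrays and COL3A1 on 2, COL21A1, COL4A4, COL6A5 and COL9A3 on 1 each, and the other 14 on none. Their highest log2 signal was 7.06, for COL3A1, where the lowest log2 signal of a probe above background was 6.85 to 6.95 per array.

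**Figure D1:**
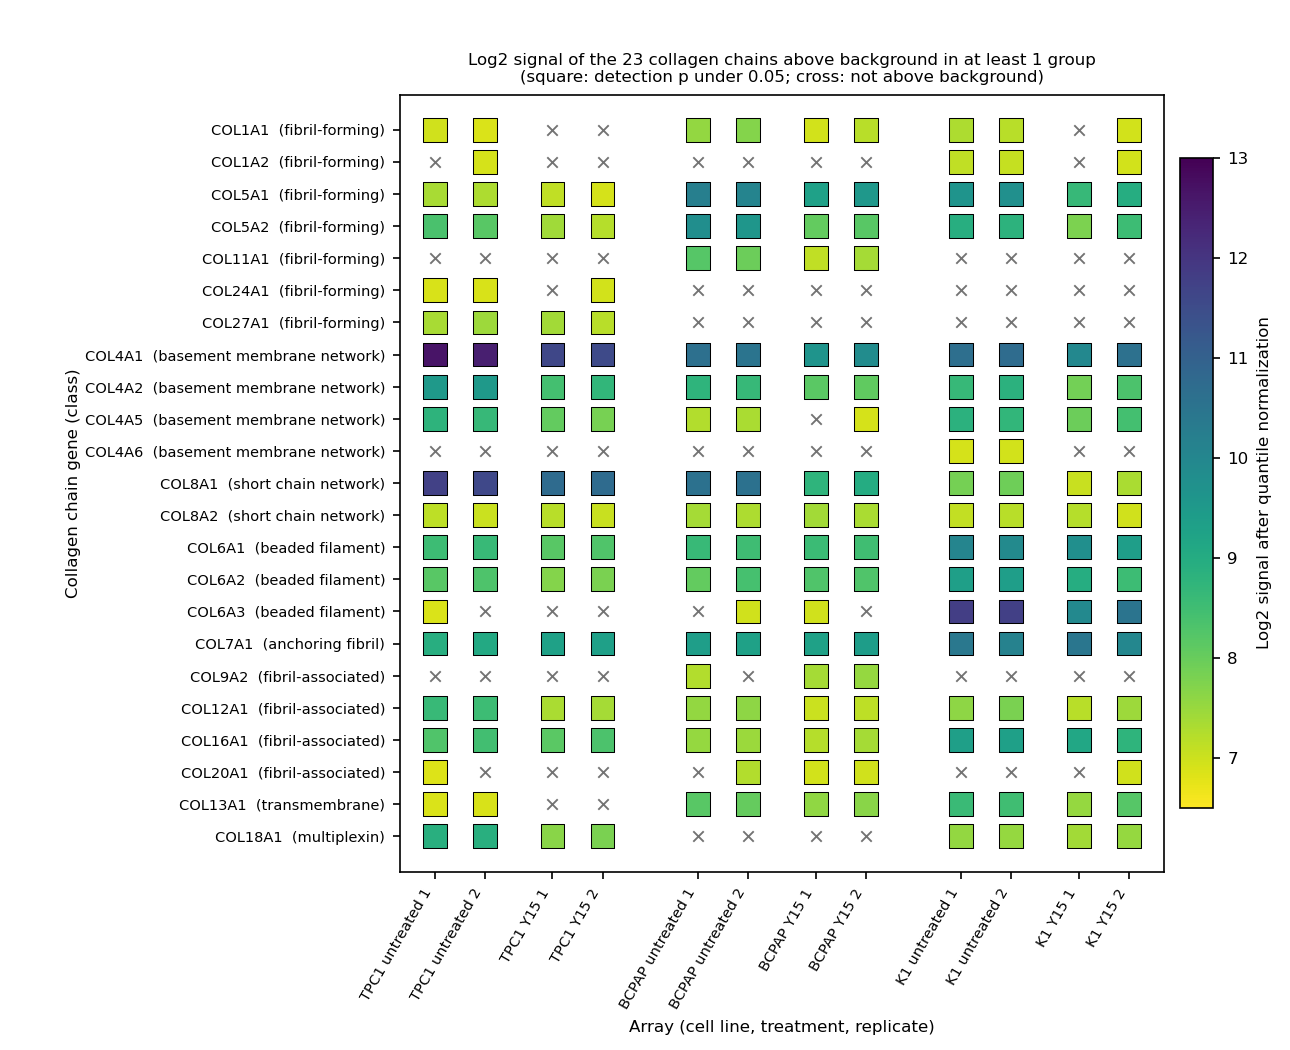
Log2 signal after quantile normalization (color) of the 23 chains above background in at least 1 group (rows, with the class of collagen) on each of the 12 arrays (columns); squares are above background and crosses are not. COL6A3 had its high signals in K1, COL18A1 in TPC1, and 11 chains were above background on all 12 arrays.

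The untreated lines differed in most of the tested chains. Between TPC1 and BCPAP 15 of 23 chains differed at an adjusted p under 0.05 in limma, where 53% of all tested genes did, 8 of them higher in TPC1 (all genes 28.1%) and 7 lower (all genes 24.9%). Between TPC1 and K1 17 differed (all genes 37.6%), 6 higher in TPC1 (all genes 20%) and 11 lower (all genes 17.6%), and between BCPAP and K1 14 did (all genes 48.2%), 6 higher in BCPAP (all genes 23.5%) and 8 lower (all genes 24.7%). With median centring in place of quantile normalization these were 15, 12 and 13.

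A difference of at least 2 on the log2 scale was seen for COL6A3, COL8A1, COL5A1 and COL18A1. COL6A3, the long chain of type VI collagen, averaged 11.79 ± 0.04 (SD, n = 2) in untreated K1, 6.85 ± 0.02 in TPC1 and 6.89 ± 0.10 in BCPAP, where 1 of 2 arrays of each line was above background. The log2 differences were -4.94 for TPC1 minus K1 and -4.90 for BCPAP minus K1, which set K1 against signals at the edge of background. COL6A3 entered the test only through K1, the line where it was high, so no p-value is given for these differences. COL8A1, a chain of the lattice found beneath vascular and corneal endothelium, ran the other way, with 11.67 ± 0.11 in TPC1, 10.57 ± 0.005 in BCPAP and 7.90 ± 0.06 in K1. All 3 pairs of lines differed for COL8A1 (log2 differences 1.10 for TPC1 minus BCPAP, 3.77 for TPC1 minus K1 and 2.67 for BCPAP minus K1, adjusted p from 2.48e-10 to 5.01e-06). COL5A1, which sets the diameter of type I fibrils, averaged 7.33 ± 0.04 in TPC1, 10.14 ± 0.09 in BCPAP and 9.70 ± 0.08 in K1, and was lower in TPC1 than in BCPAP and K1 (log2 differences -2.82 and -2.37, adjusted p = 6.08e-09 and 3.68e-08). COL18A1 averaged 8.90 ± 0.004 in TPC1, 7.55 ± 0.02 in K1 and 6.76 in BCPAP, where neither array was above background. It was at least 3.95-fold higher in TPC1 than in BCPAP (adjusted p = 1.06e-09) and at least 1.55-fold higher in K1 than in BCPAP (adjusted p = 4.79e-06). Such a bound sets the mean of the higher group against the lowest signal above background on the arrays of the other.

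Among the other chains K1 had the highest untreated mean for both common chains of type VI collagen. COL6A1 averaged 8.59 in TPC1, 8.58 in BCPAP and 9.98 in K1, and COL6A2 8.26, 8.24 and 9.36, with K1 above each other line and the other two not called apart. COL7A1 and COL16A1 were also highest in K1 (10.27 and 9.35). TPC1 had the highest mean of COL4A1 (12.56 against 10.57 in BCPAP and 10.69 in K1), COL4A2 (9.50 against 8.72 and 8.75) and COL12A1, and BCPAP and K1 were not called apart for these 3 chains. COL4A5 averaged 8.72 in TPC1, 8.78 in K1 and 7.29 in BCPAP, and TPC1 and K1 were not called apart. COL11A1, a partner of type V chains at the core of fibrils, was at least 2.35-fold higher in BCPAP than in TPC1 and at least 2.34-fold higher than in K1. COL27A1, of thin fibrils in cartilage, was at least 1.39-fold higher in TPC1 than in BCPAP and at least 1.45-fold higher than in K1. COL11A1 entered the test only through BCPAP and COL27A1 only through TPC1, the lines where they were high.

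Treatment with Y15 decreased chains of several collagen classes in each line, among them fibril-forming, basement membrane, fibril-associated and short chain network chains in all 3. At an adjusted p under 0.05 over all tested genes, 9 of 23 chains were lower in TPC1, where 16.1% of all genes were, 8 in BCPAP (all genes 7.6%) and 10 in K1 (all genes 5.93%). COL9A2 in BCPAP was the single chain called higher, and it entered the test only through BCPAP with Y15, the group where it was high. Over all genes 15.3%, 8.65% and 4.62% were called higher in TPC1, BCPAP and K1. In at least 1 line 14 chains were lower (all genes 22.3%), and COL12A1, COL4A2, COL5A2 and COL8A1 were lower in all 3 (all genes 1.09%). On leaving out an array 1 to 7 chains were lower in all 3 lines, 7 without replicate 2 of K1 with Y15, and COL8A1 alone without replicate 2 of untreated K1 or replicate 1 of BCPAP with Y15. With median centring 0 were. A change of at least 2-fold among the called was met by COL12A1 and COL18A1 in TPC1 (all genes 1.8%), COL5A2 and COL8A1 in BCPAP (all genes 0.315%) and COL6A3 in K1 (all genes 0.339%). Both Y15 arrays lay below both untreated arrays for 14 chains in TPC1 (all genes 36.7%), 13 in BCPAP (all genes 27%) and 17 in K1 (all genes 25.2%). The 23 chains had a median log2 change of -0.13, -0.08 and -0.39 in TPC1, BCPAP and K1, and that of all tested genes was -0.00048, 0.01 and 0.0043. All chains called lower were above background in untreated cells of that line, where 17, 15 and 18 chains were. For the rest a decrease could not be measured. Among those above background 6, 5 and 6 had an untreated mean less than 1 above the mean lowest log2 signal above background with Y15. This limited how far they could fall, and 0, 2 and 2 of them were called lower.

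The array scaling moved these counts. Under median centring the median change over all genes itself shifted, by -0.21, 0.24 and -0.10 on the log2 scale in TPC1, BCPAP and K1, and the median of the chains minus this shift was -0.12, -0.28 and -0.44. Each chain called lower kept a negative change, while the calls became 10 lower in TPC1, 1 lower (COL8A1) and 1 higher (COL6A2) in BCPAP, and 2 lower in K1 (COL6A2 and COL6A3). With neqc background correction 10, 9 and 7 chains were lower and COL9A2 was higher in BCPAP, and COL12A1, COL4A2, COL5A1 and COL8A1 were the chains lower in all 3 lines. Of 28 called changes neqc enlarged 11 by over 1.5 times, for example that of COL1A1 in BCPAP from -0.56 to -1.33, of COL12A1 in BCPAP from -0.49 to -1.16 and of COL8A1 in K1 from -0.73 to -1.51, and 4 were no longer called, all in K1 (COL13A1, COL4A5, COL5A2 and COL6A2). Without replicate 1 of BCPAP with Y15 5 chains were called in that line. In K1 the replicates with Y15 differed more than in any other group (median SD over the chains 0.19 against 0.06 to 0.09), and 9 of the 10 chains called lower fell further on replicate 1. As the spread was shared by the groups, the K1 p-values rest also on the smaller spread of the other groups. Of all genes 269 differed over 2-fold from untreated K1 on replicate 1 and 35 on replicate 2. Without replicate 1 or 2 of untreated K1 4 and 3 chains were called in K1, and without replicate 1 or 2 of K1 with Y15 8 and 11. From the 4 K1 arrays alone 0 chains were called in limma and 11 had an unadjusted p under 0.05, as did 1995 genes. Of all tested genes 0 were called there, so that count says nothing particular to the chains.

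The summed signal of stromal markers, in which VIM weighed most, was lower with Y15 in TPC1 and K1. The summed linear signal of 10 fibroblast or stromal markers was 15109 to 15192 in untreated TPC1 and 11198 to 11615 with Y15, 10874 to 10972 and 10359 to 10919 in BCPAP, and 15144 to 16034 and 12385 to 14262 in K1. VIM had the highest log2 signal of them (13.62 in untreated TPC1 and 13.68 in K1), with ACTA2 next (9.92 and 10.25), so these sums mostly follow VIM. The number above background went from 5 to 3 in TPC1 and from 4 to 3 in K1 and stayed at 5 in BCPAP. LUM, a proteoglycan of collagen fibrils, was above background in TPC1 alone and fell there by 1.07 on the log2 scale (9.72 to 8.65, adjusted p = 5.12e-06, limma). VIM, PDGFRB and S100A4 also fell in TPC1 (log2 changes -0.49, -0.40 and -0.30), while ACTA2, a smooth muscle actin of myofibroblasts, rose there by 0.48 (adjusted p = 0.000666) and fell in BCPAP by 0.28 (adjusted p = 0.0282). In K1 no stromal marker was called (VIM -0.26, adjusted p = 0.0775). Some thyroid markers were lower too. PAX8 fell in all 3 lines (log2 changes -0.80, -0.35 and -0.48, adjusted p = 2.73e-05, 0.0122 and 0.00413), FOXE1 in TPC1 alone and NKX2-1 in BCPAP, the line where it was above background. HHEX, above background in each group, was called in no line (log2 changes -0.04, 0.04 and 0.16). Of the epithelial markers KRT7 fell in TPC1, and KRT8, KRT18, KRT19 and EPCAM were called in no line. The summed signal of 7 follicular markers went from 3756 to 3781 untreated to 2384 to 2434 with Y15 in TPC1, from 1778 to 1865 to 1563 to 1597 in BCPAP, and from 3838 to 4051 to 2923 to 3153 in K1. In untreated TPC1 and K1 PAX8 had the highest log2 signal of these (11.53 and 11.64), with FOXE1 next (8.03 and 7.65), so the sums there mostly follow PAX8. The monocyte marker CD14 fell in K1 by 1.16 (adjusted p = 0.000292), and CD68 rose in TPC1 and BCPAP (log2 changes 0.56 and 0.85). The part of these markers in the decrease of the collagens was not tested.

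**Figure D2:**
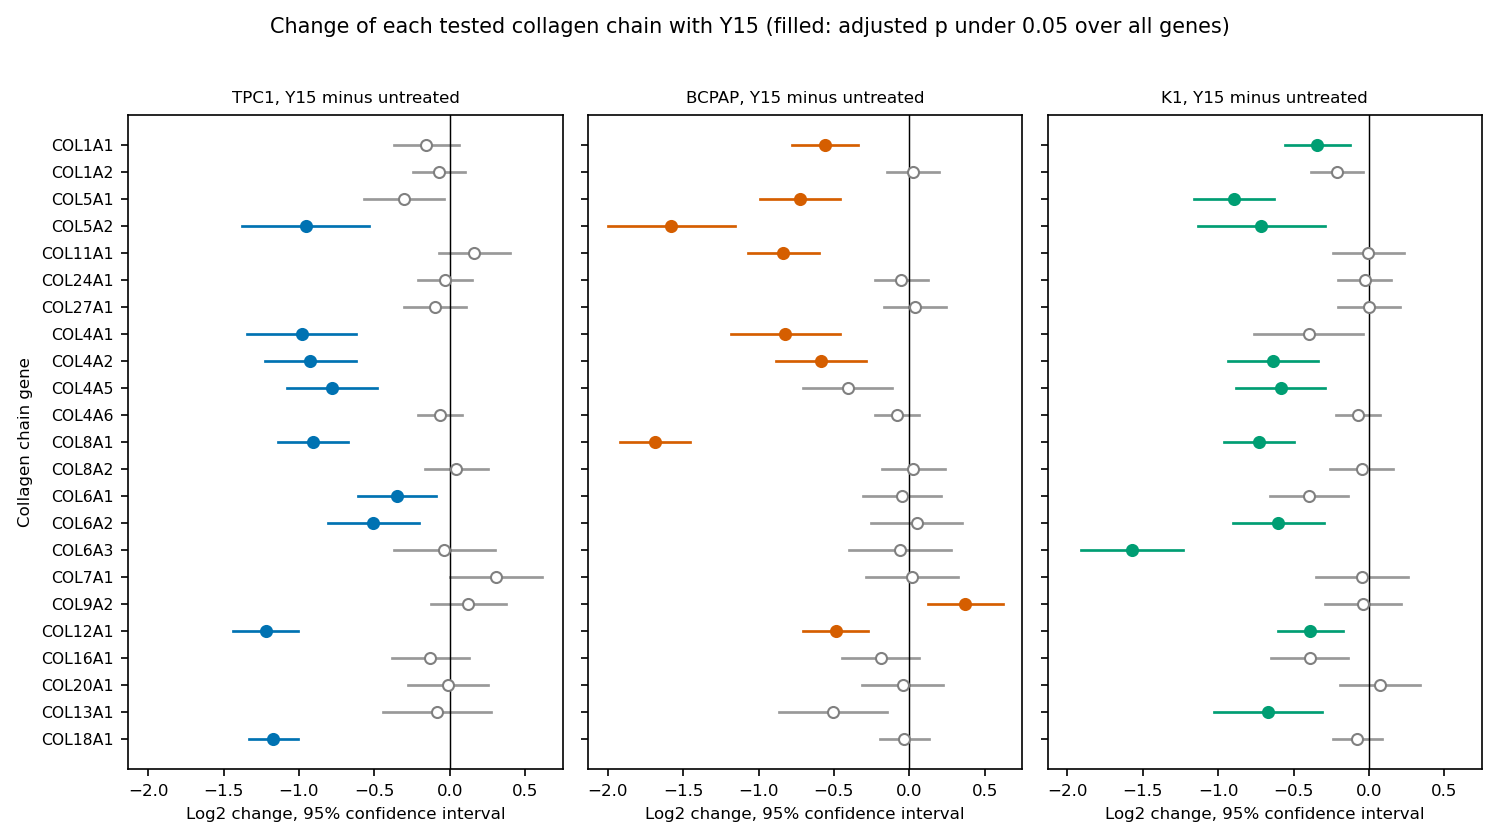
Log2 change with Y15 (point) and its 95% confidence interval (line) for the 23 tested chains in TPC1, BCPAP and K1; filled points passed an adjusted p under 0.05 over all genes and open points did not. The called changes lie left of 0 in 9, 8 and 10 chains, and COL9A2 in BCPAP is the called change to the right of 0.

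Type IV chains decreased together in TPC1. COL4A1 and COL4A2 form the common trimer of basement membranes. COL4A1 read 12.65 and 12.47 on the untreated TPC1 arrays and 11.62 and 11.53 with Y15, 10.64 and 10.51 against 9.65 and 9.85 in BCPAP, and 10.64 and 10.73 against 9.97 and 10.60 in K1. The treated arrays lay below the untreated ones in each line, by little on replicate 2 of K1. In TPC1 the log2 signal of COL4A1 fell by 0.98 (SE 0.164, adjusted p = 0.00091, limma) and by 0.82 in BCPAP (adjusted p = 0.00656, and 0.0715 without replicate 1 of BCPAP with Y15), and in K1 its change of -0.40 did not pass (95% confidence interval -0.76 to -0.04, adjusted p = 0.148).

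COL4A2, read from the other strand of the shared start region printed above, gave 9.50 and 9.51 in untreated TPC1 and 8.45 and 8.71 with Y15, 8.78 and 8.66 against 8.17 and 8.09 in BCPAP, and 8.65 and 8.85 against 7.89 and 8.33 in K1. No treated array overlapped the untreated ones of its line. COL4A2 fell by 0.92 in TPC1 (SE 0.136, adjusted p = 0.000401, limma), by 0.59 in BCPAP and by 0.64 in K1 (adjusted p = 0.0139 and 0.0144). The call in BCPAP ended without replicate 1 of untreated BCPAP or replicate 1 or 2 with Y15 (adjusted p = 0.0779, 0.0665 and 0.0863), and that in K1 without replicate 2 of untreated K1 (adjusted p = 0.118).

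COL4A5, the chain affected in Alport syndrome, read 8.79 and 8.64 in untreated TPC1 and 8.05 and 7.82 with Y15, 7.26 and 7.32 against 6.84 and 6.92 in BCPAP, and 8.84 and 8.73 against 7.96 and 8.43 in K1. The treated arrays were lower in each line, and in BCPAP 1 of the 2 was no longer above background. COL4A5 fell by 0.78 in TPC1 (SE 0.135, adjusted p = 0.00116, limma) and by 0.59 in K1 (adjusted p = 0.0201), and the change of -0.41 in BCPAP did not pass (adjusted p = 0.0622), although with neqc it was -1.25 and called (adjusted p = 0.00687). The K1 call ended without replicate 1 or 2 of untreated K1 or replicate 1 with Y15 (adjusted p = 0.148, 0.0791 and 0.0559, log2 change -0.35 in the last), and with neqc (adjusted p = 0.0594). A dimmer COL4A5 probe, above background on 6 arrays, changed by -0.31, -0.09 and -0.34 and was called in TPC1 alone (adjusted p = 0.0319). COL4A6, whose start lies 379 bases from that of COL4A5 and whose product joins it in some basement membranes, was above background on the untreated K1 arrays alone (6.93 and 6.94, and 6.86 on average with Y15). Its change of -0.07 there was not called, and the untreated mean lay 0.06 above the lowest signal above background. COL4A3 and COL4A4, the other partners of COL4A5, were not tested.

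The type V chains COL5A1 and COL5A2, which join in a trimer and start fibrils, both decreased in BCPAP and K1. COL5A2 read 8.36 and 8.20 in untreated TPC1 and 7.42 and 7.22 with Y15, 9.82 and 9.58 against 8.06 and 8.18 in BCPAP, and 8.92 and 8.84 against 7.78 and 8.55 in K1. The treated and untreated arrays did not overlap in any line. COL5A2 fell by 1.58 in BCPAP, a 2.99-fold decrease (SE 0.192, adjusted p = 0.000456, limma), by 0.95 in TPC1 (adjusted p = 0.00286) and by 0.71 in K1 (adjusted p = 0.0378). The K1 call ended on leaving out any array other than replicate 2 of K1 with Y15 (adjusted p up to 0.2), and with neqc or no detection filter (adjusted p = 0.0855 and 0.0559). Without replicate 1 of K1 with Y15 the change was -0.33.

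COL5A1 read 10.21 and 10.08 in untreated BCPAP and 9.30 and 9.54 with Y15, and 9.65 and 9.75 against 8.64 and 8.98 in K1. In TPC1, where it was lowest, it read 7.35 and 7.30 against 7.11 and 6.93. Treated arrays were lower in all 3 lines without overlap. COL5A1 fell by 0.72 in BCPAP (SE 0.121, adjusted p = 0.00266, limma) and by 0.89 in K1 (adjusted p = 0.00134), and its change of -0.30 in TPC1 did not pass (95% confidence interval -0.57 to -0.04, adjusted p = 0.0802), although with neqc it was -0.85 and called (adjusted p = 0.0135). COL5A3, the less common chain of type V, was not above background on any array.

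COL11A1 was above background in BCPAP alone, with 8.22 and 7.95 untreated and 7.13 and 7.37 with Y15. It fell there by 0.83 (SE 0.107, adjusted p = 0.000612, limma), with the treated arrays below the untreated ones. In TPC1 (6.62 and 6.53, then 6.76 and 6.71) and K1 (6.80 and 6.67, then 6.70 and 6.77) no array was above background. COL11A2, its partner in cartilage, was not tested.

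COL1A1, the major chain of type I collagen, was above background in each untreated line. It read 6.98 and 6.86 in untreated TPC1 and 6.69 and 6.84 with Y15, 7.56 and 7.70 against 6.95 and 7.19 in BCPAP, and 7.30 and 7.20 against 6.87 and 6.95 in K1. The groups did not overlap in any line, and with Y15 neither TPC1 array and 1 K1 array were above background. COL1A1 fell by 0.56 in BCPAP (SE 0.0986, adjusted p = 0.00368, limma) and by 0.34 in K1 (adjusted p = 0.0492), and in TPC1 it was at least 1.04-fold lower, which did not pass (adjusted p = 0.271). The K1 call ended on leaving out any of 9 arrays (adjusted p up to 0.271), those other than replicate 2 of K1 with Y15 and the BCPAP arrays with Y15. COL1A2, its partner in the type I trimer, was above background on both arrays of untreated K1 alone (7.13 and 7.06, then 6.84 and 6.93 with Y15). It read 6.84 and 6.91, then 6.84 and 6.78 in TPC1, and 6.72 and 6.65, then 6.63 and 6.79 in BCPAP. Its K1 change of -0.21 did not pass on either probe (adjusted p = 0.115, and -0.24 with adjusted p = 0.0895 on the dimmer probe), although with neqc it was -0.71 and called (adjusted p = 0.0323).

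Type VI collagen is assembled from COL6A1, COL6A2 and a large chain such as COL6A3. These chains were above background together on both arrays in K1 and not in the other lines. COL6A3 read 11.81 and 11.76 in untreated K1 and 9.93 and 10.50 with Y15, so both treated arrays lay over 1 below the untreated ones on the log2 scale. It fell by 1.57, a 2.97-fold decrease (SE 0.153, adjusted p = 0.000205, limma), and a dimmer COL6A3 probe changed by -1.50 (adjusted p = 0.000246). The study had picked COL6A3 on these same arrays, so this is no independent evidence of its direction. Signals in TPC1 (6.86 and 6.83, then 6.86 and 6.76) and BCPAP (6.82 and 6.96, then 6.97 and 6.69) stayed at the edge of background.

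COL6A1 and COL6A2 were measured above background on all 12 arrays. COL6A2 read 8.19 and 8.33 in untreated TPC1 and 7.70 and 7.80 with Y15, 8.07 and 8.41 against 8.28 and 8.29 in BCPAP, and 9.35 and 9.38 against 8.98 and 8.54 in K1. The groups were apart in TPC1 and K1, and in BCPAP the treated arrays lay between the untreated ones. COL6A2 fell by 0.51 in TPC1 (SE 0.137, adjusted p = 0.0154, limma) and by 0.60 in K1 (adjusted p = 0.0195), and changed by 0.05 in BCPAP (95% confidence interval -0.25 to 0.35, adjusted p = 0.847). The TPC1 call ended without replicate 2 of untreated TPC1 or replicate 1 or 2 with Y15 (adjusted p = 0.111, 0.1 and 0.0547), and the K1 call without replicate 1 or 2 of untreated K1 (adjusted p = 0.107 and 0.112) and with neqc (adjusted p = 0.0606). With median centring the BCPAP change was 0.49 and was called higher (adjusted p = 0.0255). On another probe, above background on all 12 arrays, COL6A2 changed by -0.33 in TPC1 (adjusted p = 0.0374), 0.33 in BCPAP (not called, adjusted p = 0.0607) and -0.50 in K1 (adjusted p = 0.0145), and on a dimmer one it was called in no line.

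COL6A1 read 8.54 and 8.63 in untreated TPC1 and 8.19 and 8.28 with Y15, 8.63 and 8.53 against 8.57 and 8.49 in BCPAP, and 10.05 and 9.92 against 9.79 and 9.38 in K1. The arrays overlapped in BCPAP and not in the other lines. COL6A1 fell by 0.35 in TPC1 (SE 0.117, adjusted p = 0.0401, limma), a call that ended on leaving out any of 10 arrays, all but those of K1 with Y15 (adjusted p up to 0.198). The changes of -0.05 in BCPAP and -0.40 in K1 did not pass (adjusted p = 0.824 and 0.052). COL6A5 and COL6A6, which can take the place of COL6A3, were not tested.

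COL8A1 was called lower in all 3 lines, and the calls held whichever array was left out. It read 11.75 and 11.59 in untreated TPC1 and 10.76 on both arrays with Y15, 10.57 and 10.58 against 8.77 and 9.00 in BCPAP, and 7.86 and 7.94 against 7.04 and 7.31 in K1. The groups stood well apart in each line. The BCPAP decrease was 3.22-fold (log2 change -1.69, SE 0.106, adjusted p = 4.16e-06, limma), that of TPC1 1.88-fold (adjusted p = 7.96e-05) and that of K1 1.66-fold (adjusted p = 0.00203, and 0.141 with median centring). A further bright probe changed by -0.87, -1.46 and -0.51 and was called in all 3 lines. A dim probe changed by -0.26, -0.38 and -0.03 and missed the threshold in K1 (adjusted p = 0.891). COL8A2, its partner in the type VIII lattice, stayed between 6.98 and 7.40 on the 12 arrays. It read 7.14 and 7.03, then 7.21 and 7.05 in TPC1, 7.37 and 7.30, then 7.40 and 7.32 in BCPAP, and 7.10 and 7.19, then 7.22 and 6.98 in K1. The COL8A2 changes were 0.04, 0.03 and -0.05, with 95% confidence intervals from -0.26 to 0.25 over the lines, and its signal lay near background.

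**Figure D3:**
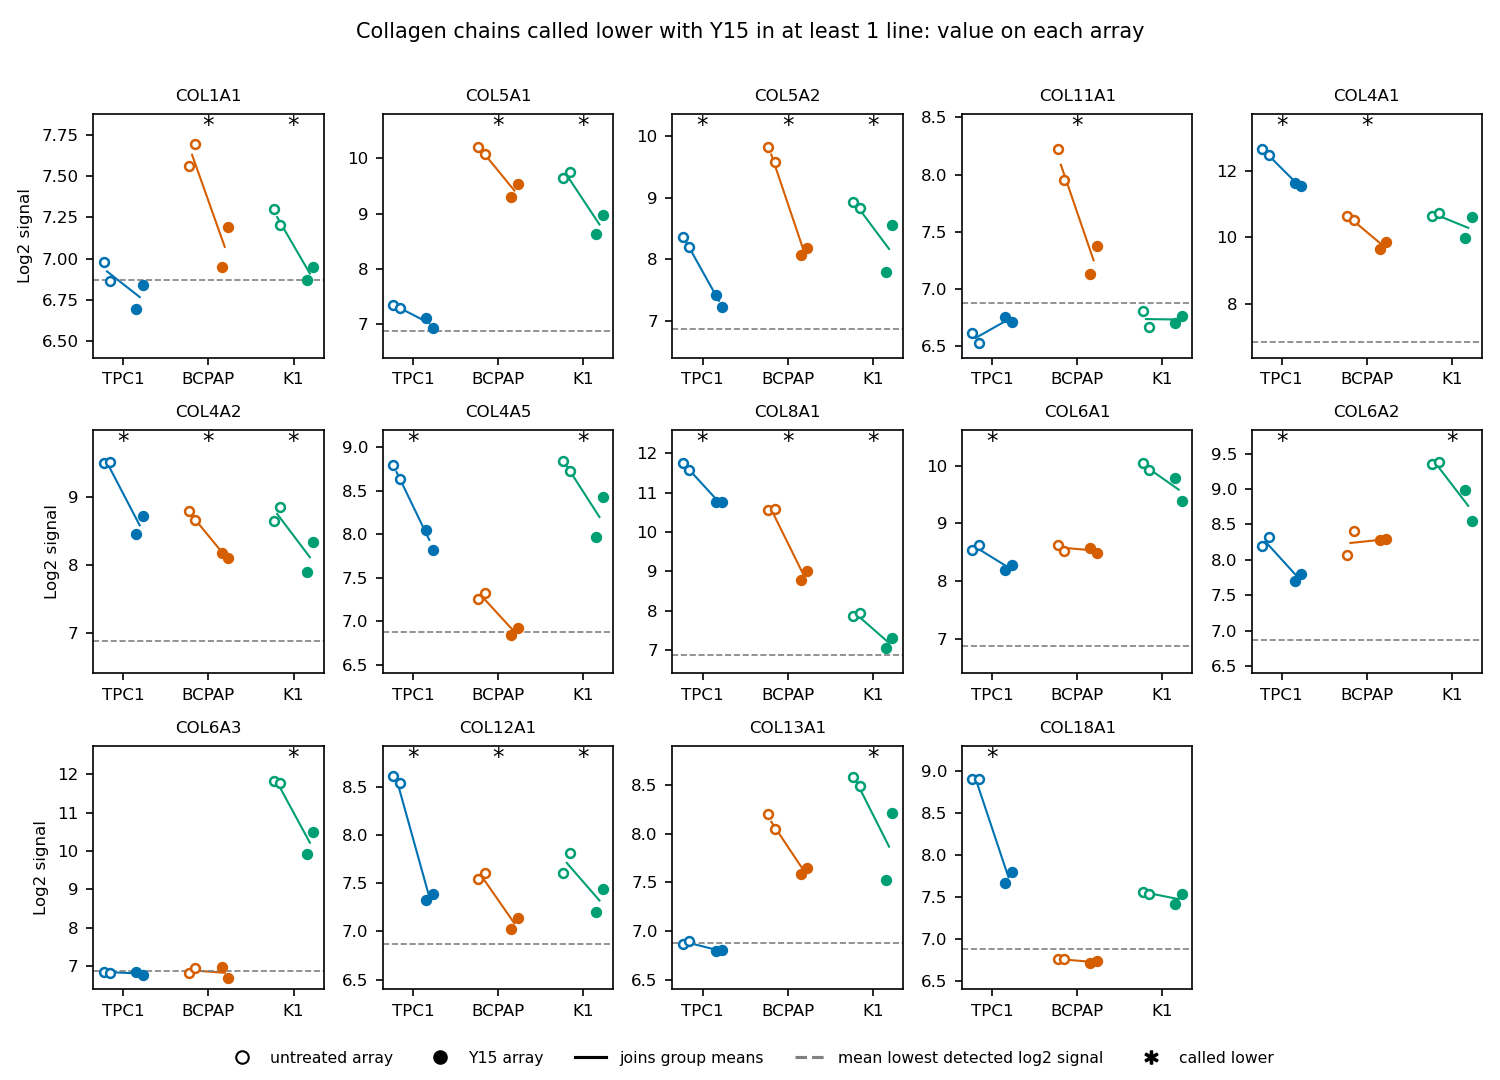
Log2 signal of the 14 chains called lower with Y15 in at least 1 line on each array (open points untreated, filled points Y15), with lines joining the group means, stars for called decreases and a dashed line at the mean lowest log2 signal above background. COL12A1, COL4A2, COL5A2 and COL8A1 carry stars in all 3 lines, and the K1 points with Y15 lie further apart than those of TPC1 and BCPAP in most panels.

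COL12A1, a homotrimer that decorates type I fibrils, fell most in TPC1. It read 8.61 and 8.55 untreated and 7.33 and 7.39 with Y15 in TPC1, 7.54 and 7.60 against 7.02 and 7.14 in BCPAP, and 7.61 and 7.82 against 7.20 and 7.44 in K1. Treated and untreated arrays did not overlap in any line. The decrease was 2.33-fold in TPC1 (log2 change -1.22, SE 0.098, adjusted p = 5.26e-06, limma), 1.4-fold in BCPAP (-0.49, adjusted p = 0.00679, and 0.0709 without replicate 1 of BCPAP with Y15) and 1.31-fold in K1 (-0.39, adjusted p = 0.0291). The K1 call ended on leaving out any TPC1 array, either untreated K1 array or replicate 1 of K1 with Y15 (adjusted p up to 0.21). Another probe, designed on another transcript and above background on 4 arrays, changed by 0.08, -0.05 and 0.10 and was called in no line, so the decrease rests on the brighter probe.

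COL18A1, a heparan sulfate proteoglycan of basement membranes, fell in TPC1. It read 8.90 on both untreated TPC1 arrays and 7.67 and 7.80 with Y15, which was a 2.25-fold decrease (log2 change -1.17, SE 0.074, adjusted p = 1.13e-06, limma). In K1 it read 7.56 and 7.54, then 7.41 and 7.54, with a change of -0.08 (95% confidence interval -0.24 to 0.08, adjusted p = 0.568). In BCPAP (6.76 on both untreated arrays, then 6.71 and 6.73) it was not above background.

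COL13A1, a transmembrane collagen of adhesion sites, read 8.58 and 8.49 in untreated K1 and 7.53 and 8.21 with Y15, 8.20 and 8.05 against 7.59 and 7.65 in BCPAP, and 6.87 and 6.90 against 6.79 and 6.81 in TPC1. The K1 arrays with Y15 were far apart, and the lower was replicate 1. COL13A1 fell by 0.67 in K1 (SE 0.163, adjusted p = 0.0259, limma), and the change was -0.33 without replicate 1 of K1 with Y15 and -1.01 without replicate 2. The call ended without replicate 1 or 2 of untreated K1 (adjusted p = 0.159 and 0.102) and with neqc (adjusted p = 0.0602). Its change of -0.51 in BCPAP did not pass (adjusted p = 0.0571).

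The remaining tested chains were not called lower. COL9A2, a fibril-associated chain of cartilage, was higher in BCPAP by 0.37 (7.26 and 6.92, then 7.39 and 7.53, adjusted p = 0.0472, limma), with 1 untreated array above background. It entered the test only through BCPAP with Y15, the group where it was high. The call ended with no detection filter (adjusted p = 0.0604), median centring (0.0559) or the 4 BCPAP arrays alone (0.057) and on leaving out any of 9 arrays, and without replicate 2 of untreated BCPAP the change was 0.20 (adjusted p = 0.304). COL7A1, the anchoring fibril chain, changed by 0.31, 0.02 and -0.04 in TPC1, BCPAP and K1, and COL16A1, a minor fibril-associated chain, by -0.13, -0.19 and -0.39 (adjusted p = 0.0542 in K1). With median centring the TPC1 change of COL7A1 turned to -0.14 and that of COL16A1 was -0.53 and called (adjusted p = 0.0211). The changes of COL20A1, COL24A1 and COL27A1 lay between -0.10 and 0.07.

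In the F test of limma over the 3 lines the measured change with Y15 was called different for 5 of 23 chains (21.7%, all genes 18.5%). These were COL18A1 (adjusted p = 5.7e-05), COL6A3 (0.000958), COL11A1 (0.00225), COL8A1 (0.00267) and COL12A1 (0.00342), and the calls held whichever array was left out. COL6A3 and COL11A1 entered the test only through K1 and BCPAP, the lines where they were high. Elsewhere they were below or at the edge of background, where no decrease could be seen. Their F tests therefore cannot show a different response. The same limit holds for COL18A1 between TPC1 and BCPAP. For COL18A1 the change in TPC1 was below those in BCPAP and K1 (differences -1.14 and -1.09, adjusted p = 4.79e-05 and 9.55e-05). For COL12A1 the TPC1 change was likewise below those of BCPAP and K1 (differences -0.73 and -0.83, adjusted p = 0.00474 and 0.00391), with BCPAP and K1 not called apart (difference -0.10, 95% confidence interval -0.40 to 0.21). For COL8A1 the BCPAP decrease was larger than that of TPC1 by 0.78 (adjusted p = 0.00501) and than that of K1 by 0.96 (BCPAP minus K1 -0.96, adjusted p = 0.00427). Over all genes 17.3% differed between TPC1 and BCPAP, 8.15% between TPC1 and K1 and 7.25% between BCPAP and K1.

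How far a chain could fall differed between the lines. Counted as the untreated mean minus the mean lowest log2 signal above background on the Y15 arrays, the room was 2.03 for COL18A1 in TPC1, -0.11 in BCPAP and 0.68 in K1. It was -0.02, 0.02 and 4.92 for COL6A3 in TPC1, BCPAP and K1, and -0.30, 1.22 and -0.14 for COL11A1, so for these 2 chains a decrease could be measured in 1 line alone. COL12A1 had a room of 1.71, 0.70 and 0.84, and COL8A1 of 4.80, 3.70 and 1.03. The part of this limit in the differences was not tested. With neqc 4 of the 5 differences were called and COL8A1 was not (adjusted p = 0.113), and with median centring COL11A1 (0.219) and COL8A1 (0.609) were not. The type IV chains COL4A1, COL4A2 and COL4A5 were not called for a difference between the lines (adjusted p = 0.19, 0.38 and 0.363), nor were COL5A1, COL5A2 and COL6A2 (0.0673, 0.089 and 0.0633), which does not show that the lines responded alike.

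Among 45 other genes of collagen synthesis and reception 38 were tested, and 20 were called with Y15 in at least 1 line (all genes 42.5%). In TPC1 10 were lower and 4 higher (all genes 16.1% and 15.3%), in BCPAP 9 and 1 (all genes 7.6% and 8.65%), and in K1 4 and 1 (all genes 5.93% and 4.62%). These shares of all genes are the background of the counts by role, which rest on few genes each. Of 8 prolyl hydroxylation genes, whose products stabilize the triple helix, 5 were lower in TPC1, 3 in BCPAP and 3 in K1, and none was higher. P3H2, which prolyl 3-hydroxylates type IV collagen in particular, read 10.55 and 10.40 in untreated TPC1 and 9.21 and 9.27 with Y15. It fell by 1.23 there (SE 0.147, adjusted p = 9.42e-05, limma) and by 0.63 in BCPAP (adjusted p = 0.0138), and changed by -0.10 in K1 (adjusted p = 0.743). P4HB, the shared subunit of prolyl 4-hydroxylase, fell by 0.57 in TPC1 and by 0.28 in BCPAP.

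Of 4 lysyl hydroxylation and glycosylation genes, 1 was lower and 1 higher in TPC1, 2 were lower in BCPAP and none was called in K1. PLOD1, a lysyl hydroxylase, fell by 0.92 in TPC1 and by 0.67 in BCPAP. Of 7 folding and secretion genes 1 was lower in TPC1 and 2 were higher, 1 was higher in BCPAP and 1 in K1, and SERPINH1, the chaperone of procollagen, was called in no line (-0.10, -0.02 and -0.24). Of 6 propeptide cleavage genes 1 was lower in TPC1 and 1 in K1. Of 4 crosslinking genes 2 were lower in TPC1 and 1 in BCPAP. LOXL1, a lysyl oxidase, read 8.78 and 8.71 in untreated TPC1 and 7.62 and 7.54 with Y15, and fell by 1.17 (SE 0.0896, adjusted p = 3.81e-06, limma), while another LOXL1 probe changed by -0.22 (adjusted p = 0.0643). LOX itself fell by 0.61 in TPC1 and by 0.60 in BCPAP.

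Of 9 collagen receptor genes 1 was higher in TPC1 (all genes 15.3%) and 3 were lower in BCPAP (all genes 7.6%). ITGA2, the integrin subunit that binds collagen with ITGB1, ran against the chains in TPC1. It read 7.84 and 7.88 untreated and 8.87 and 8.93 with Y15 and rose by 1.04 (SE 0.0852, adjusted p = 6.22e-06, limma), where no treated array overlapped the untreated ones, although with median centring the rise of 0.64 was not called (adjusted p = 0.0676). In BCPAP it fell by 0.33 (adjusted p = 0.0239). In K1 its change was 0.05 (adjusted p = 0.764). ITGB1 fell by 0.50 in BCPAP and was not called in TPC1 or K1.

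**Figure D4:**
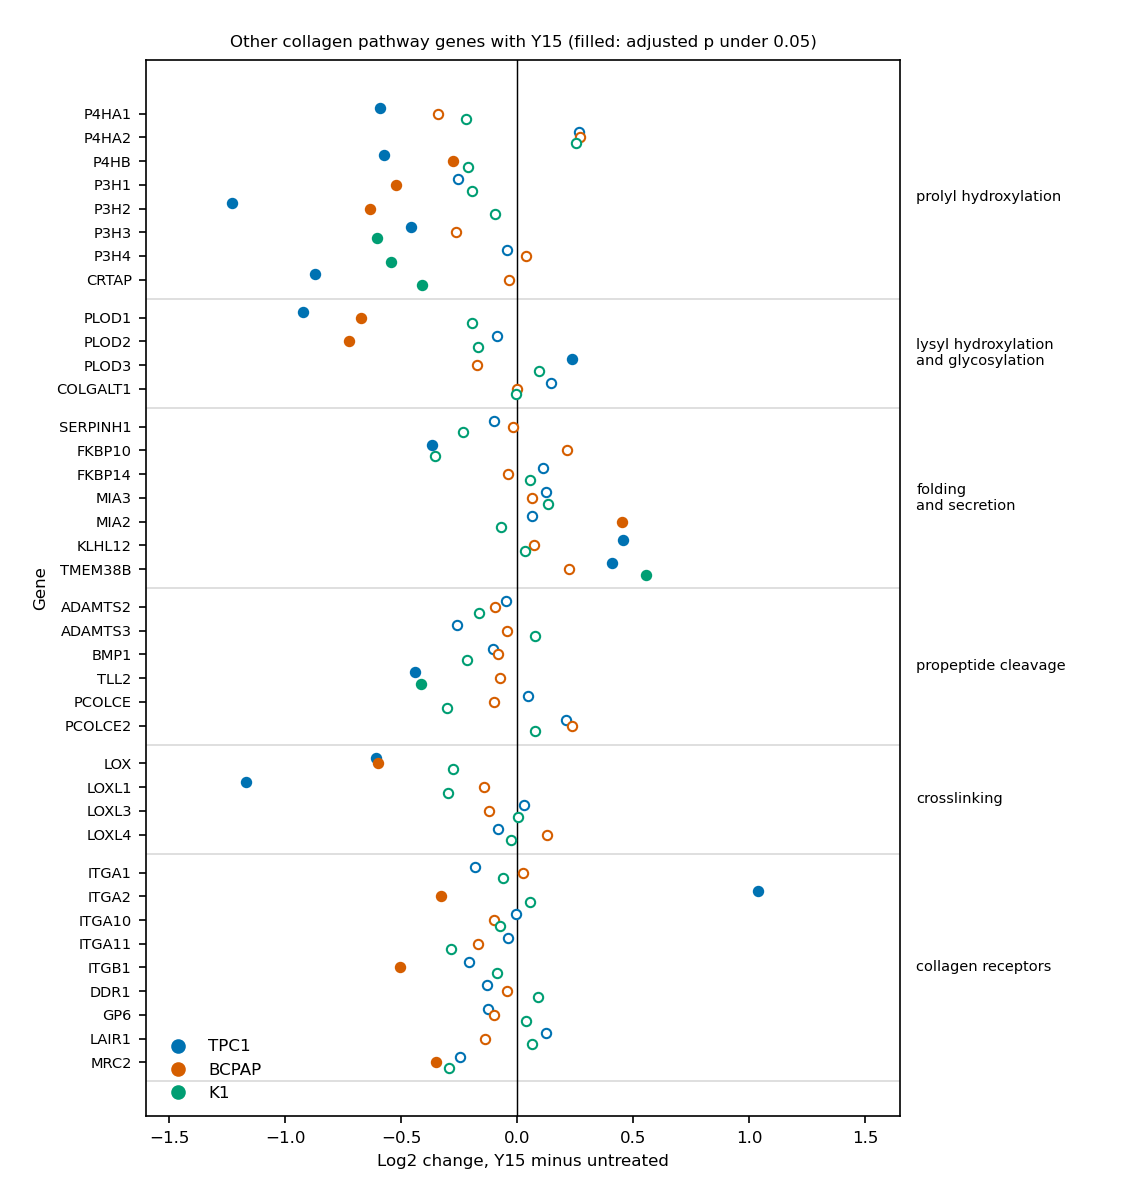
Log2 change with Y15 of the 38 tested genes of collagen synthesis and reception, grouped by role, in TPC1, BCPAP and K1 (colors); filled points passed an adjusted p under 0.05 over all genes. P3H2 and LOXL1 in TPC1 lie below -1 and ITGA2 in TPC1 lies above 1.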

How the data were processed

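Gene expression in 12 samples of 3 papillary thyroid cancer cell lines was measured on Illumina bead arrays from TRIZOL RNA and biotin-labelled cRNA. The methods name HumanRef-8 v3 arrays, while the deposited table holds 47323 probes, so the array type is not settled here. From GenomeStudio (version not given) the authors deposited probe intensities and detection p-values, and separately log2 values that had been quantile normalized. Dose and time of Y15 are those of the sample labels.

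Log2 intensities were quantile normalized, which gave the authors' log2 values to within 4.99992e-09. Probes with 1 gene symbol (30109, symbols updated through entrez_id) were used, and a gene was represented by its brightest probe above background. Genes with a detection p under 0.05 on both arrays of at least 1 group (12378 of 20044) were fitted with limma 3.58.1 (R 4.3.3) over 6 group means. The 6 groups shared 1 estimate of the spread per gene, and p-values were adjusted by Benjamini-Hochberg over all tested genes. A gene was called at an adjusted p under 0.05. A difference of the Y15 effect was tested with the F test over the 3 lines. Full values were given for chains called with a log2 change of at least 0.5 and for their trimer partners, group means for chains differing by at least 2 between untreated lines, and values of other pathway genes called with a change of at least 1. P4HB, PLOD1, LOX, SERPINH1 and ITGB1 were named as well after their values were seen. The collagen chains, the lists and these rules were chosen with earlier results of these data known. Scripts were tested on simulated data. Sequences came from RefSeq (GRCh38.p14). Alternatives were median centring, neqc, the authors' log2 values, other filters and probe rules, array weights, an intensity trend, the replicate block, each line alone and leaving out each array. Figures were drawn with matplotlib 3.10.9.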

Additional observations from a re-analysis of the deposited data

Results flagged for a closer look

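A different change with Y15 between TPC1, BCPAP and K1 was called for 5 of the 23 tested collagen chains in the F test of limma. Of all tested genes 18.5% were called, so the count says nothing particular to the chains. The adjusted p was 5.7e-05 for COL18A1, which fell in TPC1. COL18A1 was not called in K1, where its room for a fall was 0.68, and was not above background in BCPAP. The adjusted p was 0.000958 for COL6A3, which fell in K1 and was at the edge of background elsewhere. For COL11A1, which fell in BCPAP and was below background elsewhere, the adjusted p was 0.00225. Both chains entered the test only through the line where they were high, and no decrease could be seen in the other lines. The adjusted p was 0.00267 for COL8A1, which fell in all 3 lines and most in BCPAP, and 0.00342 for COL12A1, which fell in all 3 lines and most in TPC1.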

How the results depend on the processing

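Of 36 single-gene results 13 kept their call in every alternative and 0 reversed. Among them were 28 results of a chain in a line, of which 8 kept it. These 8 were COL8A1 in TPC1 and BCPAP, and COL12A1, COL18A1, COL4A1, COL4A2, COL4A5 and COL5A2 in TPC1, so no K1 call was kept throughout. Against 9 chains called with Y15 in BCPAP, 10 in K1 and 9 in TPC1, median centring gave 2, 2 and 10. The 4 K1 arrays alone gave 0 in K1 (limma, with 11 chains at an unadjusted p under 0.05), where 0 of all tested genes were called too. Leaving out an array gave 5 to 11 in BCPAP, 3 to 11 in K1 and 7 to 11 in TPC1. For 5 chains with a different effect of Y15 between lines, array quality weights gave 9, and leaving out an array 5 to 15 (15 without replicate 1 of K1 with Y15 and 10 without replicate 2). For 20 other pathway genes called, median centring gave 13 and leaving out an array 17 to 25. Counts between untreated lines (15, 17 and 14) ran over 14 to 17, 13 to 17 and 12 to 15 on leaving out an array. The causes were not tested.

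Replicate numbers did not pair the samples (correlation of their deviations 0.19, -0.18 and -0.01 in TPC1, BCPAP and K1). With the replicate block 10 chains were called in TPC1, 8 in BCPAP, 9 in K1 and 5 for a different effect, 15, 15 and 14 chains differed between the untreated lines, and 17 pathway genes were called. COL1A1 and COL5A2 in K1 and COL9A2 in BCPAP were then not called. Crossing the numbers in BCPAP, an alternative chosen after seeing the data, gave 9 there. With a detection p under 0.01 20 chains were above background, and 29 when 1 of the 2 arrays of a group sufficed. Signal over background limits the chains near 6.9 on the log2 scale, where no further decrease can be seen.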
